A study of Homo sapiens with 11 samples.

Results

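The control arm of a xenograft experiment is described here: the human transcriptome of 5 subcutaneous PC-3 tumours, labelled PC3_tumor_123 to PC3_tumor_127 and written T123 to T127 from here on, taken from mice that received phosphate-buffered saline (PBS). They were chosen by the treatment label PBS and are 5 of the 11 libraries of the series; the other libraries, from mice given transformed α2-macroglobulin (A2M*), were not used. PC-3 is an established human prostate cancer cell line. The cells were injected with Matrigel under the skin of male athymic nude mice (Crl:NU-Foxn1nu) aged 8 weeks. The tumours grew for 7 days, and intraperitoneal injections followed. The authors' methods give 31 days of injections. Their figure legend instead counts from the tumour cell injection at day 1 and ends the experiment at day 31. Nude mice lack a thymus and mature T cells but keep macrophages, natural killer cells and B cells. All 5 tumours came from 1 cell line, each library from a separate tumour, so the spread between libraries covers tumour, host mouse and library preparation together and these cannot be told apart. Because all samples belong to 1 group, the values are levels and spreads with no test between conditions.

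PC-3 cells were derived from a bone metastasis of a prostate adenocarcinoma and grow without androgens. They are known for epithelial keratins, secretion of urokinase and loss of the androgen programme of the luminal prostate. In a subcutaneous graft the human cells are the tumour parenchyma, whereas vessels, fibroblasts and leukocytes come from the mouse, and only reads assigned to the human transcriptome entered the tables. Both scales of the tables are used below. RPM is a gene's reads per 1000000 reads counted on all genes and is used to compare 1 gene between tumours. RPKM is RPM per kilobase of exon and is used to compare genes with each other. The coefficient of variation (CV) is the standard deviation over the 5 tumours as a percent of the mean, and all ± values are SD with n = 5.

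The total on genes ran from 26042224 reads in tumour T126 to 35874381 in tumour T127, at which depth 3 reads correspond to 0.0836 to 0.115 RPM. Of the 25590 genes listed, 18548 had a read in every tumour, 2938 in some tumours and 4104 in none. The tumours ranked genes alike, with a Spearman correlation across genes of 0.989 to 0.994 over the 10 pairs of tumours; genes are not independent replicates, so this is a description. No pair of libraries was alike within counting noise, since the chi-square statistic per degree of freedom was 17.2 to 49.2.

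Tumour T126 stood apart from the others before any gene was considered. Its deviation from the mean of the 5 tumours followed the base composition of the transcript: over 11607 genes with a mean of at least 5 RPM and a known GC content, the Spearman correlation across genes of the log2 deviation with GC content was -0.790 in tumour T126, against 0.238, 0.387, 0.0765 and 0.574 in tumours T123, T124, T125 and T127. Among 10 equal groups of genes ordered by GC content, the AT-rich end, with a median GC content of 36.9%, lay 0.249 (log2) above the gene means in tumour T126, and the GC-rich end, with a median of 64.1%, had a median deviation of -0.318. Over the 11972 genes with a mean of at least 5 RPM, tumours T123 to T127 held the highest value for 22.95, 8.58, 9.30, 37.6 and 21.5% of genes and the lowest value for 12.5, 19.3, 18.4, 28.01 and 21.8%. Counts of genes that were highest or lowest in a tumour are to be read against these shares. The deviations are taken from a mean that includes tumour T126, so its gradient by itself pushes the other tumours towards the opposite sign. The 5 correlations are therefore not independent. What this gradient owes to RNA, library or tumour was not tested. For the gene sets and lists that tumour T126 bears on, values are also given without it, or after the median deviation of each of these GC groups was taken off in every tumour, an adjustment chosen after the data were seen.

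**Figure D1:**
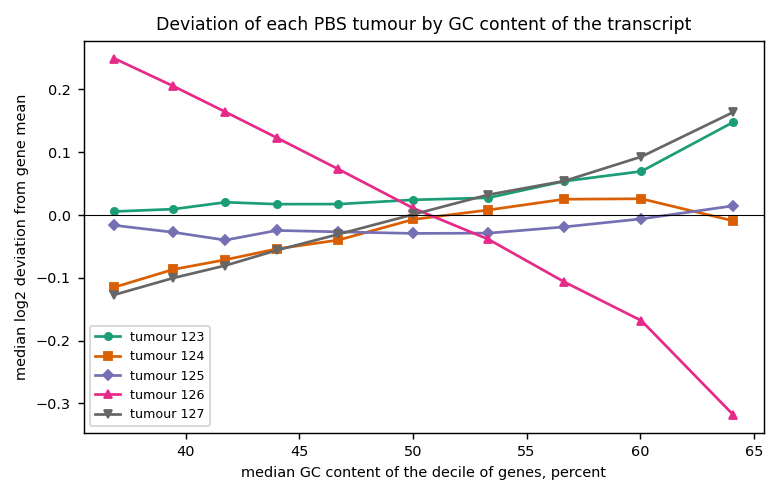
Median log2 deviation from the gene mean (vertical axis) in each of the 5 PBS tumours, for 10 equal groups of genes ordered by GC content of the transcript (horizontal axis, percent). Tumour T126 runs from 0.249 in the group of lowest GC content to -0.318 in that of highest, the opposite slope to tumour T127, which runs from -0.127 to 0.164. The gene mean is over all 5 tumours, so the slopes are not independent.

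MSMP, which encodes the prostate-associated microseminoprotein, a secreted protein related to β-microseminoprotein, had the highest mean of all genes on both scales. Its RPKM was 10065, 10204, 9756, 9024 and 11879.8 in tumours T123 to T127 (mean 10186 ± 1051), and its mean RPM was 6896 ± 712. The lowest RPKM was in tumour T126 and the highest in tumour T127, and every one of the 5 was above the highest RPKM of any other gene. By RPM, EEF1A1 was above MSMP in tumours T125 (6692 against 6605) and T126 (6260 against 6109). MSMP lies at chr9:35752987-35756610 on the minus strand (GRCh37, GENCODE) and its exons overlap those of 1 other gene. No other gene had as high a mean on either scale. For this reason the 100 bases before its RefSeq start site are shown (GRCh38.p14, chr9:35754277-35754376, minus strand). Capitals mark the letters TATAAA, read on either strand, and the run begins 29 bases before the start.
MSMP: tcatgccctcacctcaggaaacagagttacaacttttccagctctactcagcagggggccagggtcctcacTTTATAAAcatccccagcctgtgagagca
The letters TATAAA stand on either strand in 11.95% of all 27305 RefSeq windows of 300 bases, 250 before and 50 after the start, and in 3 of the 17 windows matched to the 25 genes of highest RPKM (MSMP, RPLP0 and RPL3).

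The remainder of the 25 genes with the highest mean RPKM was mostly the machinery of translation. Cytosolic ribosomal proteins made up 13 of the 25, among them RPL41 at 2598 ± 285 RPKM and RPL30 at 2090.2 ± 153 RPKM, and EEF1A1, the elongation factor that brings aminoacyl-tRNA to the ribosome, stood at 1693 ± 154 RPKM. Actin and its regulators formed the next group: the actin-sequestering thymosins TMSB4X (3961 ± 417 RPKM) and TMSB10 (2337 ± 235 RPKM) lay above the actins ACTB (1749 ± 161 RPKM) and ACTG1 (1368 ± 119.9 RPKM) themselves. The list also held the calcium-binding protein S100A6 (2256 ± 263 RPKM), the glycolytic enzyme GAPDH (1986 ± 162 RPKM), the galactoside-binding lectin LGALS1 (1268 ± 109 RPKM), and B2M, the light chain of MHC class I (1336 ± 358 RPKM).

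PLAU, which encodes urokinase, the protease that turns plasminogen into plasmin, ranked 10 by RPKM and 3 by RPM. Its RPKM was 1849.7, 2359.7, 1606, 2218 and 1768 in tumours T123 to T127; tumours T124 and T126 were high and tumour T125 was low. B2M had the widest spread among the 25, with a CV of 26.8% against a median of 9.21% for the 25 genes. Its RPKM was 1455, 1258, 938, 1146 and 1883, highest in tumour T127 and lowest in tumour T125. In 15 of the 25 genes tumour T125 was the highest, most of them ribosomal protein genes.

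**Figure D2:**
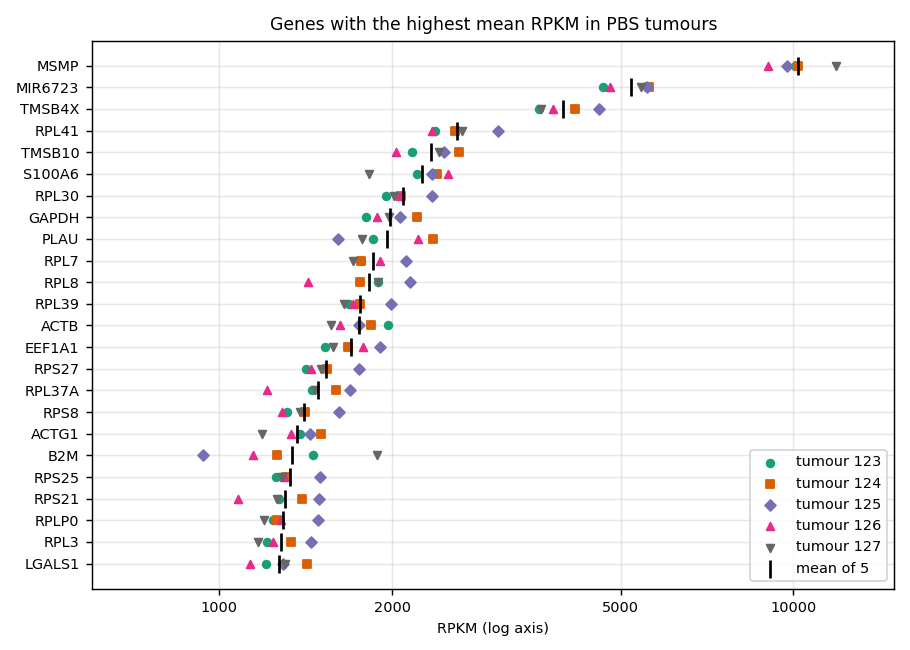
RPKM (horizontal log axis) of 24 of the 25 genes with the highest mean RPKM, 1 point per PBS tumour and a bar at the mean of 5. MSMP stands alone between 9024 and 11880 RPKM, and B2M shows the widest spread, from 938 to 1883 RPKM.

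Counted in reads rather than per length, genes with a long listed exon length entered the top. Of the 10 genes with the highest mean RPM, 6 were also among the 25 by RPKM, and the newcomers were MUC5B, NEAT1, RPS24 and FLNA. Their listed exon lengths were 17916, 3735, 2962 and 8510 bases, and a listed length can exceed that of the transcript present. MUC5B, a gel-forming mucin of airway and gland epithelium, had 5030.4, 4644, 5099.9, 3815 and 6431 RPM in tumours T123 to T127, lowest in tumour T126 and highest in tumour T127; with an exon length of 17916 bases it ranked only 168th by RPKM. NEAT1, the long non-coding RNA on which paraspeckles are built, had 1974, 2749, 3147, 2923 and 2625 RPM and was lowest in tumour T123. FLNA, the actin crosslinker filamin A, had 2632, 2985, 2742, 2132 and 2691 RPM. The 10 most counted genes took 4.17% ± 0.188 of the reads, the 100 most counted 16.6% ± 0.739, and the 1000 most counted 46.5% ± 0.983. Cytosolic ribosomal protein genes together took 5.30% ± 0.414 and long non-coding RNAs 1.28% ± 0.0573.

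The RPKM of some genes turned on the exon length it was divided by. MIR6723 was second by RPKM with 4666, 5599.7, 5552, 4799 and 5421 in tumours T123 to T127, but its exon length is 89 bases and by RPM it ranked 248th; whether its reads came from the microRNA precursor or from a longer RNA over the same bases was not tested, and the kit did not select small RNA. At the other end, 304 of the 22845 genes with a position (1.33%) had an exon length in the tables over 1.2 times the whole span of the gene in GRCh37, and 140 of these lie on chromosome 6. TUBB, a β-tubulin named after its values were seen, ranked 53rd by RPM with 1294 ± 102 RPM but 1334th by RPKM, on a listed exon length of 24937 bases against a span of 8104. HSPA1A and HSPA1B, with listed lengths of 12145 and 12601 bases over spans of 2404 and 2517, and the immediate early gene IER3 and the MHC class I gene HLA-C are understated by RPKM in the same way. None of the 25 genes of highest RPKM was among the 304.

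Expression fell off steeply below the leading genes: 37 genes had a mean of at least 1000 RPKM, 588 at least 100, 6549 at least 10, and 12789 reached 1 RPKM in every tumour. Just below the 25 leading genes came RPLP1, RPS4X, RPL29, EEF1G and RPL24, at 1239.5 to 1146 RPKM, next to LGALS1 as the lowest gene inside the list at 1268 RPKM.

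The tumours carried the programme of a simple epithelium. All 13 genes of that list were at 1 RPKM or more in every tumour, with a median of 109 RPKM. The keratins led: KRT81, a hair keratin although on this list, stood at 870 ± 111.9 RPKM. Of the simple keratins, KRT7 stood at 439 ± 35.2, KRT19 at 419 ± 61.01, KRT18 at 320.4 ± 44.4 and KRT8 at 254 ± 18.98 RPKM. The adhesion molecule EPCAM (168 ± 11.7 RPKM), E-cadherin CDH1 (83.5 ± 5.19 RPKM) and the epithelial splicing regulator ESRP1 (52.4 ± 3.34 RPKM) were present in all 5 tumours at CVs of 6.22% to 6.99%. In tumour T125 all 13 genes were above their means, also after the GC adjustment, and 9 of the 13 were highest there.

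CTNNA1, the α-catenin that links E-cadherin to actin and a gene that PC-3 cells are known to lack in function, is not on that list and was named after its values were seen. It gave 10, 30, 22, 20 and 27 reads in tumours T123 to T127, or 0.157 ± 0.0505 RPKM, beside the 83.5 RPKM of its partner CDH1.

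Genes of basal and squamous epithelium were detected next to the simple keratins. Of 14, 12 reached 1 RPKM in every tumour: the laminin chain LAMB3 (300.1 ± 51.6 RPKM), the integrin ITGB4 (365 ± 61.9 RPKM) and S100A2 (484 ± 77.5 RPKM) were abundant, whereas the basal keratins KRT5 and KRT14 stood at 2.73 ± 1.48 and 0.981 ± 0.244 RPKM. KRT5 was among the genes of widest spread, with 8.27, 4.90, 3.84, 3.19 and 11.3 RPM in tumours T123 to T127, high in tumours T127 and T123. Mesenchymal genes stood beside the epithelial ones: 11 of 13 reached 1 RPKM in every tumour, with vimentin VIM at 297 ± 49.1, the matricellular protein SPARC at 137 ± 18.5 and CD44 at 70.8 ± 8.80 RPKM, while of the repressors SNAI2 stood at 33.3 ± 8.15, ZEB1 at 3.67 ± 1.44 and SNAI1 at 1.17 ± 0.229 RPKM. N-cadherin CDH2, at 7.68 ± 0.573 RPKM, was far below CDH1.

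Genes of the luminal prostate were detected in part. KLK2 and KLK3, the kallikreins driven by androgen, had no read in any tumour, and of the 16 genes 6 reached 1 RPKM in every tumour and 2 had no read, where over all 25590 genes 12789 reached that level and 4104 had no read. Among the detected genes, HOXB13, the homeobox factor that marks prostate and posterior gut epithelium, stood at 26.3 ± 2.75 RPKM, the transmembrane protease TMPRSS2 at 13.6 ± 0.890 RPKM, the transporter SLC45A3 at 10.6 ± 1.46 RPKM and the metalloreductase STEAP2 at 6.61 ± 0.872 RPKM, each in all 5 tumours. HOXB13 was one of the 3 highest HOX genes, with HOXB5 at 29.2 ± 7.08 and HOXB3 at 25.9 ± 1.80 RPKM, and 23 of 39 HOX genes reached 1 RPKM in every tumour.

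Genes of the neuroendocrine list were near the floor apart from ENO2. Of its 12 genes, only ENO2 reached 1 RPKM in every tumour, and CHGB and INSM1 were among those with no read. ENO2, which is also a glycolytic enolase, had 124.8, 221, 276, 196 and 223 RPM in tumours T123 to T127 and was lowest in tumour T123, as were 9 of the 18 glycolysis genes. Chromogranin CHGA had at most 0.0335 RPM in any tumour, that is 1 read.

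The markers of mouse host tissue were low on the human side of the sorted reads, but not absent. Of the leukocyte list 1 of 10 genes reached 1 RPKM in every tumour, the lysosomal protein CD68 at 13.3 ± 1.97 RPKM, while TYROBP had no read and the pan-leukocyte gene PTPRC had 0.257 ± 0.0907 RPKM. Of the endothelial list 3 of 9 did, PECAM1 at 3.87 ± 0.697, TIE1 at 2.22 ± 0.733 and ESAM at 1.66 ± 0.276 RPKM, while the endothelial cadherin CDH5 had 0.0492 ± 0.0120 RPKM. Of the fibroblast list 3 of 10 did: COL1A1 at 75.3 ± 28.1 RPKM, COL3A1 at 4.79 ± 1.65 and FBLN1 at 4.50 ± 0.387 RPKM, whereas COL1A2, whose product assembles with that of COL1A1 into type I collagen, had 0.379 ± 0.141 RPKM. The summed RPKM of the list was 58.7 to 118 for fibroblasts, nearly all of it COL1A1, 12.8 to 17.7 for leukocytes and 6.79 to 9.47 for endothelium. No gene of the red cell list (6 genes, with HBA2 at no read) or of the adipocyte list (5 genes) reached 1 RPKM in every tumour. Which of these reads came from human cells and which from mouse RNA was not tested.

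COL1A1 itself had 377, 622, 308, 295 and 629 RPM in tumours T123 to T127, with tumours T124 and T127 about level and above the other three. COL3A1 had 31.2, 38.5, 14.7, 21.8 and 25.3 RPM and was highest in tumour T124, with tumour T123 second. Fibronectin FN1, a mesenchymal matrix protein, had 311, 482, 308, 295 and 464 RPM, high in the same tumours T124 and T127 as COL1A1.

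Proteases of the cell surface and matrix were abundant beside PLAU. The membrane-bound matrix metalloproteinase MMP14 stood at 237 ± 42.9 RPKM, the gelatinase MMP9 at 153 ± 57.5, the stromelysin MMP10 at 120.2 ± 10.2 and the lysosomal cathepsin CTSD at 237 ± 33.6 RPKM, and the urokinase receptor PLAUR at 53.6 ± 8.49 RPKM. Of 16 genes 14 reached 1 RPKM in every tumour, the exceptions being MMP2 (0.356 ± 0.201 RPKM) and TIMP3, which gave 1 read in tumour T127 alone. MMP9 had the widest spread among the members with a mean of at least 5 RPM, 352, 365, 277, 219 and 572 RPM in tumours T123 to T127, highest in tumour T127. The inhibitors TIMP1 (110.4 ± 17.7 RPKM) and TIMP2 (80.8 ± 3.54 RPKM) were below MMP14 and MMP9 per length.

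Chemokines that attract neutrophils were part of the baseline. CXCL1 stood at 79.6 ± 13.9, CXCL8 at 58.7 ± 16.2, CXCL5 at 42.96 ± 6.72 and CXCL6 at 23.9 ± 2.33 RPKM, with IL1B at 28.3 ± 5.19 and the cytokine LIF at 25.6 ± 2.26 RPKM. CCL2, the attractant of monocytes, was the 1 gene of 18 that did not reach 1 RPKM in every tumour, at 0.396 ± 0.175 RPKM. CXCL8 had 84.05, 93.6, 135, 120.5 and 67.2 RPM, high in tumours T125 and T126 and low in tumour T127. Metallothioneins split sharply: MT2A stood at 425 ± 83.5 RPKM and MT1G at 9.85 ± 2.26 RPKM, while MT1B, MT1E, MT1H and MT4 had no read in any tumour. Genes of this family are near-identical in sequence, so reads could be lost or shared between them at counting.

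Housekeeping and organelle genes set the level against which the others can be read. The median of the 14 reference genes was 113 RPKM, from TBP at 13.3 ± 1.16 to ACTB, and their median CV was 8.99%, with B2M as the only one above 25%. Cytosolic ribosomal protein genes had a median of 644 RPKM, respiratory chain subunits 64.2, proteasome subunits 58.1 and mitochondrial ribosomal proteins 33.1 RPKM. Their median CVs were 8.60%, 8.12%, 7.87% and 9.48%, below the 10.2% of all genes with a mean of at least 5 RPM. Without tumour T126 they were 8.32%, 6.72%, 8.14% and 8.56%, against 7.97% for all such genes. With the GC adjustment they were 10.04%, 7.09%, 7.24% and 7.57%, against 7.77%. Only the respiratory chain subunits were below all genes in each setting. The chaperone CALR, the calcium-binding lectin of the endoplasmic reticulum, stood at 1057 ± 48.4 RPKM and headed the list of endoplasmic reticulum and amino acid stress genes, all 16 of which reached 1 RPKM in every tumour.

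At the other end, 4104 genes (16.04%) had no read in any of the 5 tumours, which allows a level of up to 0.0836 to 0.115 RPM in a tumour; this limit covers counting error only. Protein-coding genes were the largest class among them, 1641 of 18944 (8.66%), followed by microRNA genes, 1256 of 1614 (77.8%), and long non-coding RNAs, 550 of 2392 (23.0%). Of the snoRNA genes 151 of 372 (40.6%) were without a read. The kit enriches polyadenylated RNA, and how many short RNAs it retains was not tested.

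Families expressed in other tissues held many of the silent protein-coding genes. Of 398 genes with an olfactory receptor symbol 279 had no read, of 93 keratin-associated protein genes of the hair shaft 53, of 38 β-defensins 33, and of 18 late cornified envelope genes of the epidermis 17. Cancer-testis genes, which many tumours express, were largely silent too: 50 of 74 had no read, and MAGEA3 with 3.43 ± 0.639 RPKM, MAGEA6 with 1.65 ± 0.412 and MAGEC3 with 0.997 ± 0.181 RPKM were the highest. MAGEA3 and MAGEA6 are near-identical, so their reads could be split between them. The silent genes of these families also include close copies, such as 16 neighbouring GAGE genes and the β-defensins DEFB4A and DEFB4B. Reads of such copies could be lost at counting, so their level cannot be read from these counts. In contrast, only 10 of 527 ZNF zinc finger genes and none of the 39 HOX genes were without a read.

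Silent genes lay side by side along the chromosomes. With protein-coding genes ordered by position, 36 runs of at least 6 neighbours without a read held 391 genes, and 16 of the runs included an olfactory receptor. The longest run was of 22 keratin-associated protein genes, from KRTAP24-1 to KRTAP6-1 at chr21:31653627-31986249 (GRCh37). Runs of 20 genes covered the epidermal genes from CRCT1 to LCE6A at chr1:152486958-152816459 and a cluster from HMX1 to USP17L30 at chr4:8847802-9366447, the latter a family of near-identical copies. A run of 19 genes from CD1A to MNDA at chr1:158224214-158819296 held 13 olfactory receptors between genes of antigen presentation and interferon response, and a run of 17 from MMP26 to OR51V1 at chr11:4726014-5221912 held 16 olfactory receptors. The killer-cell immunoglobulin-like receptors from KIR3DL3 to KIR3DL2 at chr19:55235947-55378662 formed a run of 7. On chromosome Y, 34 of 44 protein-coding genes (77.3%) had no read, against 8.66% on all chromosomes. A run of 19 genes there reached from EIF1AY to CDY1 at chrY:22737662-27771049, and the cause was not tested.

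Other silent genes stood alone between active neighbours. For 42 protein-coding genes without a read, the nearest protein-coding gene on either side had a mean of at least 10 RPKM. They included factors of neural and endocrine development, HES5, NEUROG3, OTX2 and OLIG3, and the parathyroid hormone gene PTH between BTBD10 (11.1 RPKM) and FAR1 (16.1 RPKM). C20orf85 at chr20:56725958-56736206 lay beside PMEPA1 at 311 RPKM, TMEM155 beside ANXA5 at 272 RPKM, and BANF2 beside RRBP1 at 136 RPKM. Among the 42, PMF1-BGLAP, SYNJ2BP-COX16 and NME1-NME2 are readthrough genes that share exons with their neighbours, so their level cannot be read from these counts, and 14 of the 42 (33.3%) have exons that overlap another gene, against 46.7% of all protein-coding genes and 25.9% of the silent ones.

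Among the 11972 genes with a mean of at least 5 RPM, most differed little between tumours. The median CV was 10.2%, with quartiles of 7.09% and 14.5%, against a median of 2.83% from counting alone. A CV under 5% was found for 1182 genes (9.87%), above 25% for 524 genes (4.38%) and above 50% for 20. Without tumour T126 the median CV was 7.97%, and with the GC adjustment 7.77%, so this 1 library carried part of the spread. The common biological coefficient of variation estimated by edgeR over the 5 tumours was 12.5%.

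**Figure D3:**
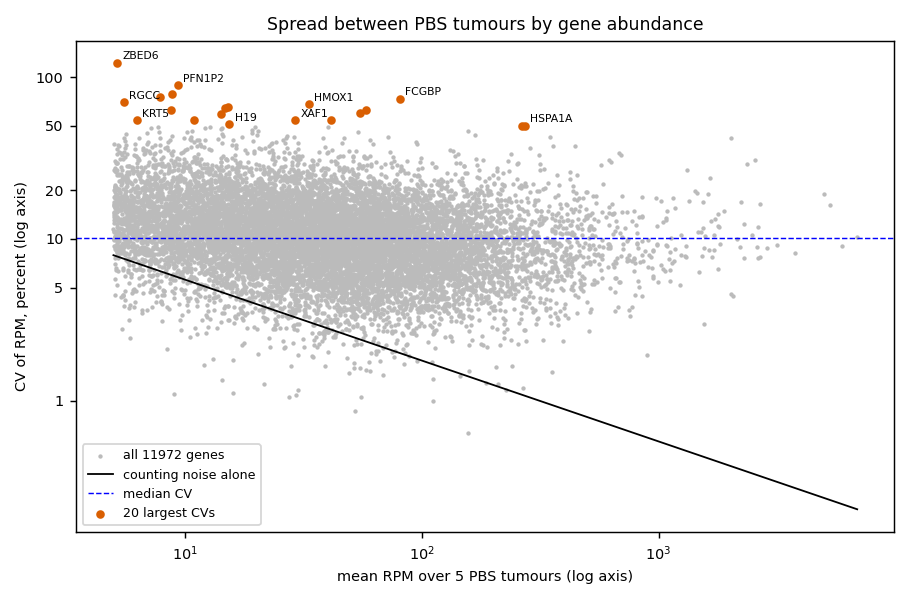
CV of RPM over the 5 PBS tumours (vertical log axis, percent) against mean RPM (horizontal log axis) for 11972 genes; orange points are the 20 genes with the largest CV, some of them named, and the black line is the CV that counting alone would give. The median of 10.2% (dashed) lies above the counting line at every abundance plotted.

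The 20 genes with the widest spread, those with a CV above 50%, are described by the tumour that was high. A first set was highest in tumour T126. ZBED6, a transcription factor encoded within an intron of ZC3H11A, had 4.12, 1.23, 2.91, 16.3 and 1.37 RPM in tumours T123 to T127, a CV of 122%. The pseudogene PFN1P2 had 8.68, 3.67, 6.28, 23.9 and 4.38 RPM, KIAA0754 8.51, 4.53, 4.80, 17.97 and 3.60 RPM, and UBXN7, an adaptor of the p97 ATPase, 13.3, 8.67, 12.6, 32.4 and 8.98 RPM. In each of the 4 genes tumour T126 was far above tumour T123, the second highest. The exons of all 4 overlap those of another gene, as do those of 46.7% of all protein-coding genes. Without tumour T126 the CV of ZBED6 was 57.0%, that of PFN1P2 38.95%, of KIAA0754 40.4% and of UBXN7 22.02%, and the last 3 left the 20.

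A second set was lowest in tumour T126 and highest in tumour T127, and the GC content of its transcripts was 55.7% to 74.3%. PCSK1N, which encodes the prohormone convertase inhibitor proSAAS, had 20.5, 8.57, 13.5, 3.72 and 27.8 RPM. Complement factor D, CFD, had 11.6, 4.38, 9.15, 2.57 and 16.1 RPM and FCGBP, a mucin-like protein that binds the Fc part of IgG, had 94.3, 43.9, 66.8, 23.9 and 177 RPM. NME2, a nucleoside diphosphate kinase whose exons are shared with the readthrough gene NME1-NME2, had 20.1, 7.19, 18.5, 3.34 and 22.2 RPM. The imprinted non-coding RNA H19 had 11.5, 14.1, 18.2, 6.14 and 27.1 RPM, and KRT5, given above, had the same lowest and highest tumours. With tumour T126 left out, PCSK1N, CFD, NME2 and H19 were no longer among the 20, while FCGBP, at 60.8%, and KRT5, at 47.7%, were; with the GC adjustment only H19 left.

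The third set was highest in tumour T125 and holds several genes induced by stress. GDF15, a cytokine released by stressed cells, had 40.4, 44.97, 111, 54.2 and 24.6 RPM, the transcription factor ATF3 21.3, 36.2, 78.4, 44.7 and 26.7 RPM and RGCC, a regulator of the cell cycle, 2.34, 2.87, 11.8, 6.57 and 4.07 RPM. SLC2A3, the glucose transporter GLUT3, had 3.55, 10.2, 19.8, 12.1 and 8.86 RPM. HSPA1A and HSPA1B, the inducible HSP70 genes, had 172, 189, 502, 294 and 207 and 164, 185, 484, 296 and 195 RPM; they are near-identical, so their reads cannot be told apart and the pair counts as 1 observation. In all 6 genes tumour T125 was highest and tumour T126 second. The 6 genes were also among the 20 without tumour T126 and with the GC adjustment, but much of the spread of this set rests on tumour T125: without it the CV was 30.1% for GDF15, 32.1% for ATF3, 28.04% for HSPA1B, 25.2% for HSPA1A, 42.1% for SLC2A3 and 47.5% for RGCC. The CV of SLC2A3 was lower still without tumour T123, at 38.6%.

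The remaining genes were high in single or paired tumours. HMOX1, heme oxygenase 1, had 22.1, 73.7, 22.6, 21.7 and 26.8 RPM: tumour T124 was high alone, and without it the CV was 10.1%. VGF, a secreted neuropeptide precursor, was highest in tumour T123 with 20.3, 8.24, 3.05, 3.84 and 8.59 RPM, and without that tumour its CV was 48.7%. XAF1, an interferon-induced apoptosis factor, had 35.7, 22.6, 16.6, 17.2 and 53.9 RPM and was high in tumours T127 and T123. CASP14, the caspase of cornifying epidermis, had 18.4, 67.2, 71.6, 26.4 and 108 RPM, with tumours T123 and T126 low. Just below the 20 came RC3H2, SERPING1, BPIFB2, MUC16 and ODF3B, with CVs of 48.7% to 49.5%, next to HSPA1A at 50.04% as the last gene inside.

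**Figure D4:**
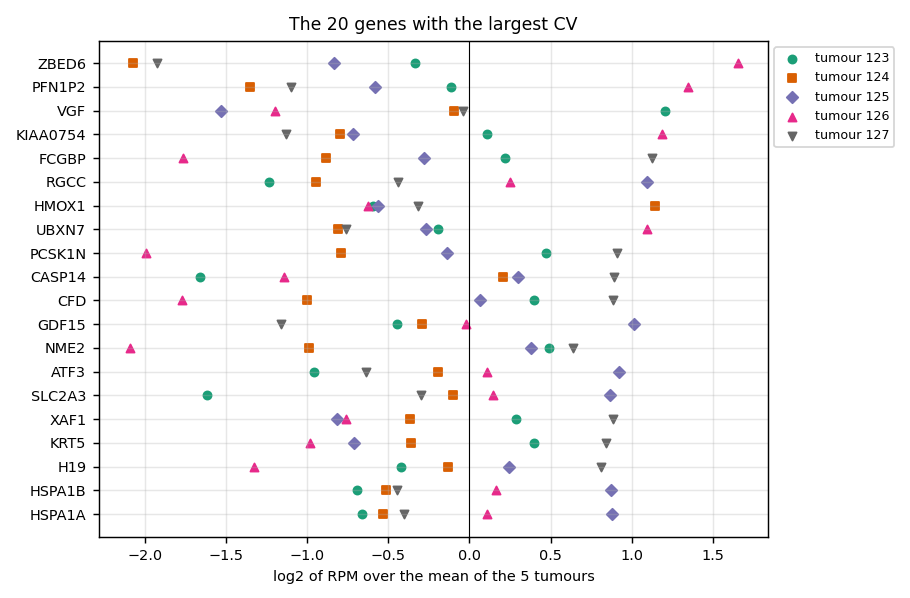
Log2 of RPM over the mean of the 5 tumours (horizontal axis) for the 20 genes with the largest CV, 1 point per PBS tumour. ZBED6, PFN1P2, KIAA0754 and UBXN7 have tumour T126 far to the right, PCSK1N, CFD, FCGBP and NME2 have it far to the left, and HMOX1 has tumour T124 alone on the right.

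Whole programmes differed between tumours as well as single genes. For each list the mean log2 deviation of its members from their 5-tumour means was taken, over the members with a mean of at least 5 RPM. The members of a list were chosen by function with earlier results of these data known, and the median CV of each list is to be read against the 10.2% of all genes. Counts of members above their means are given without the share of all genes. As deposited, the median deviation of the GC groups was positive throughout in tumour T123 (0.0056 to 0.148) and ran from 0.249 to -0.318 in tumour T126. The counts are to be read against these offsets, which the GC adjustment takes off.

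Genes induced by hypoxia were lowest in tumour T123 and highest in tumour T125. The mean log2 deviation of 18 genes was -0.48, 0.22, 0.36, -0.09 and -0.01 in tumours T123 to T127, a range of 1.79-fold, and their median CV was 21.8%. In tumour T123, 17 of the 18 genes were below their means and 15 were the lowest of the 5 values, while in tumour T125, 17 were above and 12 were the highest. NDRG1, a stress-response gene that is among the strongest responders to hypoxia, had 791, 2449, 2948, 1532 and 2348 RPM. The glucose transporter SLC2A1 had 167, 375, 441, 284 and 301 RPM, the angiogenic factor VEGFA 202, 422, 335, 268 and 355 RPM and carbonic anhydrase CA9 45.99, 81.98, 97.1, 47.4 and 95.8 RPM. In each of the 4 genes tumour T123 was the lowest, but tumour T126 was close to it for CA9. DDIT4 was the 1 gene above its mean in tumour T123, with 302, 359, 259, 204 and 235 RPM. After the GC adjustment the order of the tumours was kept, at -0.55, 0.23, 0.41, -0.10 and 0.01 over 17 genes.

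Glycolysis genes had the same order at a smaller amplitude. The mean log2 deviation of 18 genes was -0.17, 0.06, 0.17, -0.09 and 0.03, with a median CV of 11.1%. In tumour T125, 16 of the 18 genes were above their means and 11 were the highest, whereas in tumour T123, 15 were below. Hexokinase HK2 had 99.9, 129.2, 199, 165 and 107 RPM, phosphoglycerate kinase PGK1 1133, 1572, 1863, 1587 and 1556 RPM and the lactate exporter SLC16A3 297, 352, 385, 229 and 392 RPM. PFKM and PKM, at CVs of 2.26% and 4.41%, hardly differed between tumours, and LDHB ran against the list, with 408, 360.2, 340.1, 401 and 312 RPM. ENO2 is shared with the neuroendocrine list.

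The short motif ACGTG, the core of the sites bound by hypoxia-inducible factors, was looked for on both strands of the 300-base RefSeq windows. It stood in 9 of the 16 windows matched to hypoxia-induced genes and in 8 of 18 glycolysis windows, against 21.6% of all 27305 windows. Stretches before the start site of 3 genes are shown because these genes had their lowest and highest values in the same tumours as the list; capitals mark the match, and the letters CACGT are the same motif read on the other strand (GRCh38.p14; ANKRD37 at chr4:185396668-185396732 on the plus strand, BNIP3 at chr10:131982022-131982086 on the minus strand, P4HA1 at chr10:73096918-73096982 on the minus strand).
ANKRD37: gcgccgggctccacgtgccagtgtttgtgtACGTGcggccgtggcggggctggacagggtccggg
BNIP3: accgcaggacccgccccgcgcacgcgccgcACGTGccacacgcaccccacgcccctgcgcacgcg
P4HA1: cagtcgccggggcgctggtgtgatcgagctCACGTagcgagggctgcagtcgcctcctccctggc
The matches begin 143, 133 and 86 bases before the start. ANKRD37, an ankyrin repeat protein, had 2.75, 6.32, 9.27, 5.91 and 3.96 RPM in tumours T123 to T127, the mitophagy receptor BNIP3 77.4, 104, 136, 118 and 105 RPM and the prolyl hydroxylase of collagen P4HA1 351, 474, 592, 507 and 488 RPM, all lowest in tumour T123 and highest in tumour T125. A match is a description of letters, and no binding was measured.

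Genes stimulated by interferon divided the tumours in another way. The mean log2 deviation of 15 genes was 0.39, -0.03, -0.35, -0.38 and 0.36 in tumours T123 to T127, with the largest median CV of the lists described by deviation, 25.3%. All 15 genes were above their means in tumours T123 and T127 and all 15 were below in tumours T125 and T126, while tumour T124 lay between, with 6 above. IFI6, an interferon-induced mitochondrial protein, had 231, 127.97, 108, 79.8 and 237 RPM and ISG15, the ubiquitin-like modifier, 436, 275, 236, 156 and 329 RPM. The GTPase MX1 had 223, 193, 120.3, 106 and 207 RPM. In these 3 genes every value of tumours T123 and T127 was above every value of tumours T125 and T126. The counts were the same after the GC adjustment except that 10 genes were above in tumour T124, and the deviations were then 0.36, 0.01, -0.33, -0.43 and 0.39. B2M and XAF1, which are not on the list, had their highest values in tumours T127 and T123 as well. The type I interferon genes themselves were near the floor: 6 of 17 had no read, and IFNE, at 7.76 ± 0.677 RPKM and a CV of 8.73%, was the only one at 1 RPKM in every tumour.

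The letters GAAANNGAAA, the core of the interferon-stimulated response element, stood on either strand in 9 of the 12 windows matched to this list, against 3.65% of all windows and none of the 16 hypoxia windows. Stretches of 4 genes of wide spread are shown, with 1 match each in capitals (GRCh38.p14; IFI6 at chr1:27672268-27672337 on the minus strand, ISG15 at chr1:1013354-1013423 on the plus strand, IFI27 at chr14:94110611-94110680 on the plus strand, IFIT1 at chr10:89392477-89392546 on the plus strand). In IFIT1 the match is read on the other strand.
IFI6: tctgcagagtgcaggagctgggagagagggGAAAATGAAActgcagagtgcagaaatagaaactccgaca
ISG15: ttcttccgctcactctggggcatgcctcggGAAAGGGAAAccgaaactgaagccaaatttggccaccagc
IFI27: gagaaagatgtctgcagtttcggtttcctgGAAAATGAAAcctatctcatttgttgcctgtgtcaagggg
IFIT1: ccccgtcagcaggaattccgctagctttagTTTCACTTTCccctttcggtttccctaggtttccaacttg
The matches begin 115, 113, 95 and 116 bases before the start, and each of the 4 windows holds at least 1 more match. IFI27 had 70.8, 45.4, 40.2, 35.7 and 64.8 RPM and IFIT1, which binds foreign RNA, 111, 78.8, 56.1, 64.8 and 97.3 RPM in tumours T123 to T127.

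Mitosis and DNA replication genes were higher in tumours T123 and T126 and lower in tumours T125 and T127. The mean log2 deviation of 19 genes was 0.21, -0.03, -0.19, 0.27 and -0.26, with a median CV of 17.4%. All 19 were above their means in tumour T123 and 18 in tumour T126, and none was above in tumours T125 and T127. MKI67, the proliferation antigen, had 101, 87.5, 75.6, 128.8 and 71.2 RPM, topoisomerase TOP2A 81.2, 66.9, 62.6, 109 and 56.00 RPM and the kinase CDK1 103, 87.7, 86.2, 136 and 73.5 RPM, each highest in tumour T126 and lowest in tumour T127. The replication factors MCM3 and PCNA were highest in tumour T123, with 155, 117, 103, 124.6 and 110.3 and 106, 82.3, 77.5, 92.5 and 74.6 RPM. After the GC adjustment the deviations were 0.18, 0.01, -0.16, 0.20 and -0.23, and 19, 10, 1, 18 and 0 of the 19 genes were above their means. With the other lists, this made tumour T123 low in hypoxia genes and high in interferon and mitosis genes, and tumour T125 the reverse.

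Heat shock genes had their highest mean deviation in tumour T125. The mean log2 deviation of 12 genes was -0.10, -0.17, 0.31, 0.12 and -0.15 in tumours T123 to T127, and -0.15, -0.15, 0.33, 0.12 and -0.16 after the GC adjustment. Above their means were 8, 3, 10, 9 and 1 of the 12 genes, so that tumour T123 had a negative mean with most genes above theirs. HSPA1A and HSPA1B enter these values as 2 genes although they count as 1 observation. Beside HSPA1A and HSPA1B, HSPA6 had 17.2, 18.2, 40.3, 34.6 and 19.6 RPM and the co-chaperone DNAJB1 198, 194, 367, 282 and 219 RPM, all 4 in the order tumour T125, then tumour T126, then the others. The constitutive HSP90AB1 and HSPE1 varied little, at CVs of 2.99% and 5.25%, and HSPA8 was lowest in tumour T125, with 1235, 1101, 849, 1152 and 1032 RPM. HSPB1, a small heat shock protein, had 156, 132.2, 213, 96.2 and 159 RPM, highest in tumour T125 and lowest in tumour T126. The letters GAANNTTCNNGAA, a heat shock element of 3 units, stood in the windows of HSPA6 and HSPA8, that is 2 of the 12 of the list, against 0.487% of all windows; the HSPA6 stretch, with the match on the other strand in capitals 74 bases before the start, is shown because tumours T125 and T126 were clearly above the rest for this gene (GRCh38.p14, chr1:161524436-161524508 on the plus strand).
HSPA6: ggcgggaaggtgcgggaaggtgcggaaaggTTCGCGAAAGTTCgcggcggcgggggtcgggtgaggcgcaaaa
Among the immediate early genes, FOS had 1.11, 2.62, 10.99, 6.30 and 1.62 RPM and FOSB 1.44, 2.65, 6.77, 3.38 and 2.40 RPM in tumours T123 to T127, with tumours T125 and T126 above the rest; both means are below the minimum of 5 RPM and were not ranked. The 9 immediate early genes that pass the minimum had mean log2 deviations of -0.02, 0.01, 0.23, -0.15 and -0.07, lowest in tumour T126, and of -0.10, 0.00, 0.24, 0.01 and -0.15 after the GC adjustment. ATF3, described above as highest in tumour T125, is among the 9 and has the largest CV of them. In that tumour 6 of the 9 were above their means. DUSP1, a phosphatase of MAP kinases, had 22.7, 40.6, 41.1, 26.3 and 20.6 RPM and was high in tumours T124 and T125.

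The mesenchymal list had its highest mean deviation in tumour T124 and its lowest in tumour T125. The mean log2 deviation of 11 mesenchymal genes was -0.04, 0.30, -0.31, 0.07 and -0.02, and 10 of the 11 were above their means in tumour T124. The matrix protein TGFBI had 206, 291, 155, 208 and 191 RPM and the repressor SNAI2 63.7, 90.2, 48.3, 84.9 and 63.6 RPM, each highest in tumour T124 and lowest in tumour T125. MMP14, from the list of proteases, had 879, 1069, 636, 844 and 832 RPM and PLAU its highest and lowest values in the same tumours. Other members differed: FN1 was lowest in tumour T126, SPARC was highest in tumour T123 with 567, 530.4, 391, 495 and 476 RPM, and ZEB1 had 31.99, 23.4, 10.5, 32.3 and 18.9 RPM and was lowest in tumour T125, but highest in tumours T126 and T123. Genes of cholesterol and fatty acid synthesis and mitochondrial ribosomal proteins had their highest mean deviation in tumour T123, at 0.17 and 0.17. Above their means there were 14 of 14 and 73 of 76, and 14 and 72 after the GC adjustment. Proteasome genes (37 of 37, 0.16) and respiratory chain genes (68 of 75, 0.11) also had their highest mean deviation there. As deposited, the median deviation of tumour T123 was above 0 in every GC group, at 0.0056 to 0.148.

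**Figure D5:**
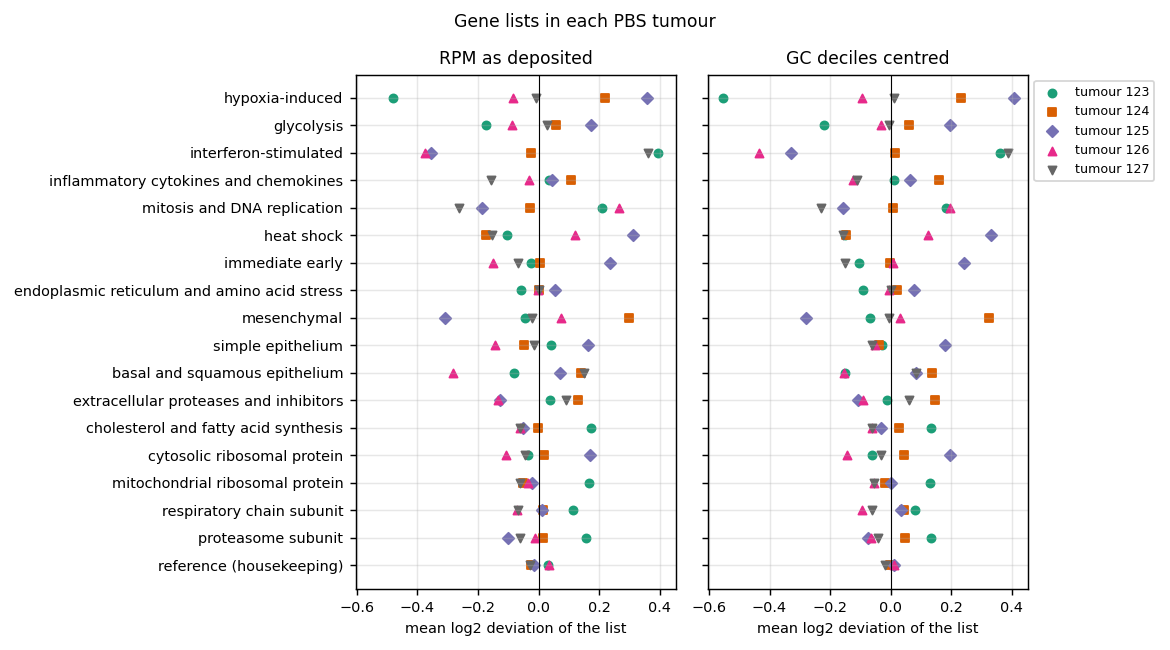
Mean log2 deviation from the 5-tumour mean (horizontal axis) of each gene list in each PBS tumour, from RPM as deposited (left) and after the median of each of 10 GC groups was taken off (right). Interferon-stimulated genes place tumours T123 and T127 on the right and tumours T125 and T126 on the left in both panels, and hypoxia-induced genes place tumour T123 on the far left.

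At the even end of the range, DDX23, a spliceosomal helicase, had 157, 156, 156, 156 and 158 RPM in tumours T123 to T127, a CV of 0.628%. The ubiquitin ligase UBE4B, the vesicle-associated protein VAPB, the dynein adaptor BICD2, MSL3P1, the carnitine transporter SLC22A5, SPIN2B, ACKR2, the focal adhesion protein TNS3 and the Golgi subunit COG7 followed, at CVs of 0.863% to 1.17%. Such values lie below the CV that counting alone gives at these abundances, which for DDX23 is 1.42%, so the order among the 10 is not informative. The reference genes in common use were less even: GAPDH had a CV of 8.15%, ACTB 9.21%, and B2M 26.8%.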

How the data were processed

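Human PC-3 xenograft RNA was sequenced by the authors on a HiSeq2500 as single reads after TruSeq v2 library preparation and demultiplexed with bcl2fastq 1.8.4. The authors sorted reads into human and mouse with xenome, aligned the human reads with TopHat2 to hg19 and made the deposited counts per RefSeq gene with featureCounts; its settings for strand, shared and multiply mapped reads are not given in the sources used here. RPM and RPKM were deposited beside the counts by the authors, and RPM equalled counts per 1000000 counts on genes within 4.97e-07.

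The 5 libraries labelled PBS were taken as 1 group, so no test between conditions was made and nothing was compared with A2M*. Means, SDs and CVs were computed from RPM and RPKM (Python 3.11.15, pandas 2.3.3), dispersion from the counts with edgeR 4.0.16, with CVs checked on simulated data. CVs were ranked over genes with a mean of at least 5 RPM, and 3 counts were taken as the limit for a gene without a read. Genes were named by rule: the 25 highest by RPKM, the 10 highest by RPM, the 20 largest and 10 smallest CVs, members of the gene lists, the 3 highest members of a family, and silent protein-coding genes between neighbours of at least 10 RPKM; the exceptions are marked, and some genes that the rule names are not reported here. The members and lists were chosen with earlier results of these data known. Positions on GRCh37 came from GENCODE, and 22845 symbols matched; promoter sequences came from RefSeq GRCh38.p14, with 250 bases before and 50 after the start. Alternatives were the minimum on RPM, scaling (TMM, size factors), the measure of spread, leaving out each tumour and, chosen after seeing the data, a GC adjustment. With 5 libraries, precision is limited by their number as well as by depth.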

Additional observations from a re-analysis of the deposited data

Results flagged for a closer look

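In 91 sets of 5 tumour values, the highest or lowest value was set against the other 4 by its gap relative to the whole range (Dixon's criterion at 95%). It stood apart in 11 sets. Chance gives about 1 in 20 for unselected values, a rate that does not hold here, since many sets are genes chosen for their large or small spread over these same values and the sets are not independent of each other.

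Tumour T126 stood apart as a library: its mean Spearman correlation with the others was 0.9907, against 0.9927 to 0.9932 for the rest, and the Spearman correlation across genes of its deviation with exon length was 0.356, against -0.209 to -0.0884. The deviations are from the mean of all tumours, so the values of the rest are not independent of tumour T126. It also stood apart for ZBED6 at 16.3 RPM (others 1.23 to 4.12), PFN1P2 at 23.9 RPM (others 3.67 to 8.68) and UBXN7 at 32.4 RPM (others 8.67 to 13.3).

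Tumour T123 stood apart for the mean log2 deviation of the cholesterol and fatty acid synthesis list, at 0.174 against -0.0600 to -0.00209, and of the mitochondrial ribosomal protein list, at 0.166 against -0.0607 to -0.0213. It was also low for SPIN2B, at 8.88 RPM against 9.06 to 9.13, a gap within counting noise.

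HMOX1 in tumour T124 was 73.7 RPM, against 21.7 to 26.8 in the others. BICD2 in tumour T124, at 56.5 RPM against 55.00 to 55.4, also stood apart, by a gap within counting noise. RPS25 in tumour T125 was 737 RPM, against 619 to 643, and 75 of the 81 ribosomal protein genes had their highest value in that tumour, against 9.30% of all genes.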

How the results depend on the processing

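Of the alternatives run, 253 kept a summary value within a set limit and 17 moved it beyond. For single genes 348 kept and 10 moved the value. The limit was a fold change from the main value or, for some results, 1 SD, and it was wide. A median CV of 7.77% with the GC adjustment or 15.2% with no minimum on RPM counted as kept, against 10.2%. These counts are therefore no measure of precision. The GC adjustment turned the sign of some list deviations near 0, as printed for hypoxia in tumour T127, interferon and mitosis in tumour T124 and glycolysis in tumour T127 (0.03 to -0.01), and of the immediate early list in tumour T126 (-0.15 to 0.01). Taking fewer than 3 counts in every tumour as silent gave 6241 silent genes in place of 4104. The mean Spearman correlation was 0.9859 over genes of at least 5 RPM, and Pearson's r of log2(RPM + 0.5) was 0.9959, in place of 0.9925. With a minimum of 1 RPM, 10 RPM or none in place of 5, 67, 13 and 3819 genes had a CV above 50%, and 9, 13 and 0 of the 20 most variable genes were shared. Leaving out 1 tumour each time kept 12 to 17 of the 20, with tumour T125 giving the lowest number. Ranking by RPM in place of RPKM kept 7 of the 25 highest genes. The median CV was 8.54% in place of 13.2% for the prostate luminal list after the GC adjustment, which was chosen after the data were seen, and 27.7% in place of 15.2% for immediate early genes with a minimum of 1 RPM. Leaving out 1 tumour gave 11.03% to 17.1% for the inflammatory list, lowest without tumour T123, and 5.71% to 9.62% for ribosomal proteins, lowest without tumour T125. The cause was not tested. No paired analysis was possible because there was 1 group and no test. Genes near 5 RPM rest on about 159 counts, and the limit for silent genes is set by depth.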

Other observations

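Other gene groups not described above were at the following levels. Of the hepatocyte list, 2 of 10 genes reached 1 RPKM in every tumour, the protease inhibitor SERPINA1 at 47.7 ± 7.54 RPKM and the fibrinogen chain FGB at 16.4 ± 3.22 RPKM. Of 73 histone cluster genes, whose transcripts mostly lack a poly(A) tail, 13 had no read and 26 reached 1 RPKM in every tumour. Of 667 genes with a LINC symbol, 163 had no read and 119 reached 1 RPKM in every tumour.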
